A study of Homo sapiens with 24 samples.

Results

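The p53 tumour suppressor can switch on a group of genes whose products kill the cell that makes them, and 10 of these death-inducing target genes were followed here in U87 MG cells, an established human glioblastoma line, after proton therapy (PT) with and without the SRC family kinase inhibitor Si306. The members are BBC3, PMAIP1, BAX, APAF1, FAS, TNFRSF10B, PERP, TP53I3, TP53INP1 and EI24, found as the gene spots of the scanner tables that carry these names. They were measured by 15 of the 41000 probes and 42 of the 43376 gene spots of the array, and all 10 were among the 22847 genes tested of 30982 names. The rule that names them is their known function and uses no measured value, although the list was drawn up with earlier results of these data known.

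RNA was collected 24 h after treatment and hybridised to Agilent whole-genome arrays with 2 colours, the treated RNA in Cy5 and its control in Cy3 on every array. The configurations were U87 2 Gy and U87 10 Gy, each against untreated U87 cells. The other pair, U87 Si306 + 2 Gy and its counterpart at 10 Gy, held cells given 10 µM Si306 besides PT, each against cells given the same dose alone. All groups are labelled as the 1 line, which has no normal glial counterpart here, and no RNA of cells given Si306 without irradiation was analysed here. The labels call the 24 tables biological replicates, 6 a configuration, but by their headers they are 3 scans each of 8 arrays, 2 arrays per configuration, with the PT arrays on 1 slide and the Si306 arrays on the other. Values below are log2 ratios of the treated over the control RNA, averaged over the scans of an array, so n = 2 arrays throughout. Which cultures the 2 arrays of a configuration carry is not stated, and the p-values measure the spread between these arrays only, which may be technical. In this bulk RNA, a smaller share of cells that make a transcript and less transcript in each cell cannot be told apart.

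In this pathway, BBC3 (PUMA) and PMAIP1 (NOXA) are BH3-only proteins that release the pore former BAX at the mitochondrion, and APAF1 then builds the apoptosome on the cytochrome c that leaks out. FAS and TNFRSF10B (DR5) are receptors at the cell surface that start death from outside, by way of caspase-8. PERP is a membrane protein of desmosomes, TP53I3 (PIG3) an oxidoreductase linked to reactive oxygen species, TP53INP1 a stress protein that acts in the nucleus and in autophagy, and EI24 (PIG8) a protein of the endoplasmic reticulum.

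Each probe is a DNA of 60 bases, and its GC content matters below because probes of the highest GC contents rose after PT by their median. For kept probes of 76.7% GC or more, the median log2 ratio was 0.84 at 2 Gy and 1.30 at 10 Gy. At 60% GC it was 0.07 at both doses. The probes shown next lie in coding sequence and range from 45% to 85% in GC content. They are written from the 5′ end with G and C in capitals. Coordinates are those of the array tables, on hg17.
BBC3 A_23_P90189, chr19:52423274-52423333, minus strand, 85% GC: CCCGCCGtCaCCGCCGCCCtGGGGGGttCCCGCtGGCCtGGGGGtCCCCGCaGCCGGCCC
BBC3 A_24_P305312, chr19:52416927-52416986, minus strand, 60% GC: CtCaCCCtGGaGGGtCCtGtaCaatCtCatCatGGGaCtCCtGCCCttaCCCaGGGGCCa
BAX A_23_P346311, chr19:54150770-54150829, plus strand, 73.3% GC: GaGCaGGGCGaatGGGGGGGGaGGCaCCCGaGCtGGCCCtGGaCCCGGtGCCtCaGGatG
TP53I3 A_23_P5392, chr2:24212266-24214007, minus strand, 45% GC, split over an intron: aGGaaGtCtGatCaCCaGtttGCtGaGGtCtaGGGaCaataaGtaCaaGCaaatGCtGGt

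Before the results, 2 features of the arrays touch every member. The table labelled U87 2 Gy replicate 5 is, by its header, a scan of a 10 Gy array, and the table labelled U87 10 Gy replicate 2 a scan of a 2 Gy array. Both stood nearer to the scans of their array (SD of the difference over probes of 0.0786 and 0.0764) than to the scans of their label (0.182 and 0.173), and both were left out. With these 2 scans kept under their labels as arrays of their own, none of the 10 members passed the limma test between the PT doses (0 at an unadjusted p under 0.05, and 0 of all genes after adjustment), although the differences of the 9 members other than APAF1, which is too dim on the PT arrays, stayed above 0, from 0.08 for PMAIP1 to 0.21 for FAS.

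The RNAs on the PT arrays and on the Si306 arrays also differed widely in level. Over 20473 probes well above background in Cy3 on all arrays, the log2 Cy3 signal, scaled to the 75th percentile of each array, had an SD of 1.15 between the slides, against 0.181 and 0.226 between the doses within a slide. By their labels, Cy3 holds untreated U87 RNA on the PT arrays and U87 RNA after PT alone on the Si306 arrays. Yet TP53I3 was 9.89-fold and PMAIP1 3.39-fold higher on the Si306 arrays, and APAF1 was well above background in Cy3 on all 4 of them and on no PT array, whereas FAS was 2.91-fold and CDKN1A 7.39-fold lower, although PT raised both genes on its own arrays. The 6 markers fixed for the line (VIM, NES, CD44, FN1, CD63 and ANXA1) were well above background on both slides, but their levels differed too. The scaled log2 Cy3 signal on the Si306 arrays minus that on the PT arrays was -2.379 for CD44, -1.0048 for ANXA1 and -0.8489 for CD63. It was -0.3958 for VIM, -0.0124 for FN1 and 1.3921 for NES. Of 3 epithelial markers, EPCAM (named TACSTD1 on the array) was well above background in Cy3 on all 4 Si306 arrays (985 to 1223 units above local background) and on 2 of the 4 PT arrays (19.4 to 47.8 units), so that no fold is given for it. KRT8 was 15.7-fold higher on the Si306 arrays, and CDH1 was not well above background on any array. Of the other markers, the endothelial PECAM1 was above background in Cy3 on all 4 Si306 arrays and on no PT array, as was SOX2. OLIG2 was so on 3 PT arrays and no Si306 array, CD3E on 3 and 1, GFAP on all 8, and PTPRC, CDH5 and S100B on none. CDKN2A, which U87 MG is known to lack, was above background on all 8 arrays with its brightest probe. Whether both slides carry the same cells was not tested and cannot be told from the labels. Each ratio below is within an array, so both of its RNAs share the slide; a value of the PT configurations and one of the Si306 configurations may not describe the same cells.

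**Figure D1:**
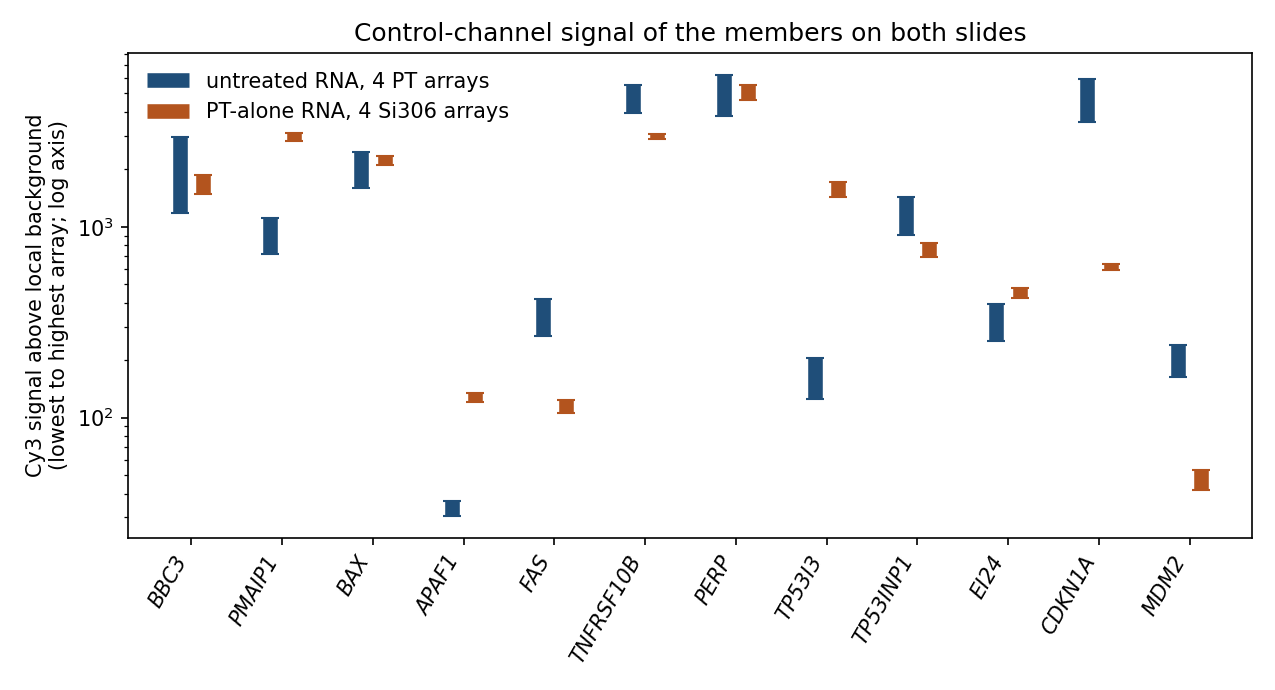
Cy3 signal above local background (log axis) of the probe that stands for each member and for CDKN1A and MDM2, drawn from the lowest to the highest of 4 arrays; blue is untreated RNA on the PT arrays and brown is PT-alone RNA on the Si306 arrays. TP53I3, PMAIP1 and EI24 lie higher on the Si306 arrays, and FAS, TNFRSF10B, TP53INP1, CDKN1A and MDM2 lie lower, with no overlap; APAF1 was not well above background on the PT arrays.

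PT alone was compared with untreated cells to ask which genes protons change. At 2 Gy, 5 of the 10 members were higher at an adjusted p under 0.05 (BBC3, FAS, TP53I3, TP53INP1 and EI24), against 32% of all genes tested, and 3 were lower (PMAIP1, BAX and PERP), against 25%. At 10 Gy, 9 were higher, against 31.2% of all genes, and 1, PMAIP1, was lower, against 26.4%. One of these 9 is APAF1, whose control RNA was not well above background on any PT array and which passed the filter on dim probes through the Si306 arrays, and without it 8 of 9 were higher. With the 2 disagreeing scans under their labels the same 5 were called higher at 2 Gy, against 29.2% of all genes, and only PMAIP1 lower, against 23.1%; at 10 Gy 6 were higher, against 29.6%, with BAX, PERP and APAF1 lost. With normexp fitted on all spots 2 were called higher at 2 Gy (BBC3 and TP53INP1), against 8.92% of all genes, and 1 lower (PMAIP1), against 4.42%. At 10 Gy 6 were then higher, against 8.73%, with APAF1, TP53I3 and EI24 lost, and 0 lower, against 5.69%. The median of the members without APAF1 was 0.23 at 2 Gy and 0.42 at 10 Gy on the log2 scale, beside 0.0204 and 0.0150 for all genes tested. The deregulated genes (DEGs, also at least 2-fold) were BBC3 at 2 Gy and BBC3 and FAS at 10 Gy, all up regulated, against 0.674% and 0.814% of all genes. No member was a down regulated DEG, as 0.0832% and 0.149% of all genes were. Since 56.9% and 57.5% of all genes passed the test one way or the other, a call by itself sets few members apart. Centring each array on its median in place of the loess curve moved the median of all genes by 0.25 and 0.21, and 8 members were then called higher and 1 (APAF1, too dim for its sign to be read) lower at 2 Gy, against 58.8% and 25.5% of all genes, with BAX and PERP turned in direction, as PMAIP1 was at 10 Gy. At 10 Gy, this centring called 9 members higher, PMAIP1 among them, and 1 (APAF1) lower, against 57% and 23.8% of all genes. The DEGs were then BBC3 and TP53INP1 (1.00) at 2 Gy, against 4.81% of all genes, and BBC3, FAS, TP53I3 (1.25) and TP53INP1 (1.5) at 10 Gy, against 3.37%. Without GC-rich probes BBC3 read 0.32 at 2 Gy, which leaves no DEG at that dose.

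The difference between the doses is measured between arrays of 1 slide, so an effect of the dyes that is the same on every array cancels in it. The control is untreated U87 at both doses, but whether these arrays carry the same untreated RNA is not stated. Of the 10 members, 9 were higher at 10 Gy than at 2 Gy and passed the test, against 10.1% of all genes tested higher and 11.1% lower. The median difference of these 9 was 0.38 on the log2 scale, beside -0.01 for all genes, and EI24, the least of the 9, lay above 92.1% of all genes tested. With median centring the 9 differences stayed above 0 and 6 passed, against 3.95% of all genes higher. With normexp fitted on all spots, 3 passed (TNFRSF10B, PERP and TP53INP1), against 0.823% of all genes higher. For none of the 9 did the 2 arrays of 10 Gy overlap the 2 arrays of 2 Gy. The share of all genes for which this held is not given, so it sets no member apart. The tenth, APAF1, was not well above background in either dye on the arrays of 2 Gy, and no difference is given for it. Of the 9, EI24 lost its call when any of 3 of the 4 arrays was left out (adjusted p from 0.0872 to 0.161), with the U87 2 Gy array 2 as the exception; the other 8 kept theirs.

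**Figure D2:**
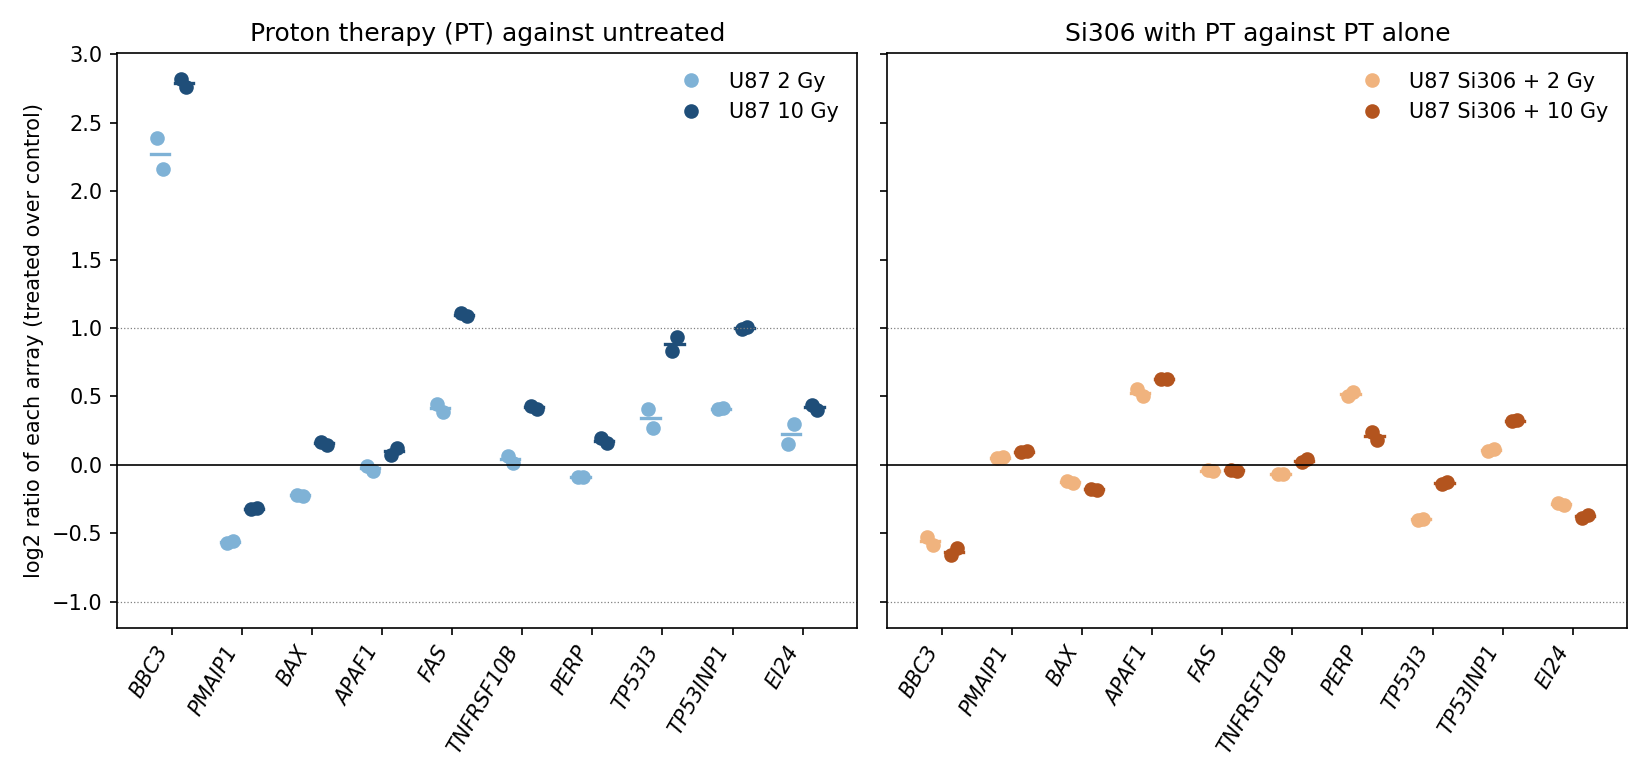
Log2 ratio of each array (points) and the mean of the 2 arrays (bars) for the probe that stands for each member, PT against untreated on the left and Si306 with PT against PT alone on the right; dotted lines mark 2-fold. At 10 Gy both arrays lie above both arrays of 2 Gy for the members other than APAF1, which was too dim on the PT arrays to be measured. The Si306 ratios stay within 2-fold. Under median centring ratios of both panels turn sign, BBC3 with Si306 + 2 Gy among them (0.32), and PERP (1.62) and PMAIP1 (1.04) with Si306 + 2 Gy pass 2-fold.

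By the GC-rich probe that stands for it, BBC3 gave the largest change of the members; without GC-rich probes its change at 2 Gy (0.32) was smaller than those of PMAIP1, FAS, TP53INP1 and TP53I3. Its probe A_23_P90189 read 2.39 and 2.16 on the arrays of 2 Gy and 2.82 and 2.76 on those of 10 Gy, a mean rise of 4.84-fold and 6.91-fold (log2 2.28 and 2.79, SE 0.05). The arrays of both doses lay far above 0 and did not overlap between doses. The other BBC3 probes rose less: A_23_P382775, of 55% GC, read 0.29 and 0.35 at 2 Gy and 1.17 and 1.24 at 10 Gy. Its mean was 0.32 (SE 0.04, adjusted p = 3.14e-05) and 1.21 (adjusted p = 2.28e-09) with every probe tested by itself. A_24_P305312, the dimmest of the probes of BBC3, gave 0.25 and 0.33, and its difference between doses, 0.08, did not pass (adjusted p = 0.459).

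The 85% GC of the BBC3 probe that stands for the gene puts it among 123 kept probes of the highest GC contents, 76.7% or more, whose median log2 ratio was 0.84 at 2 Gy and 1.30 at 10 Gy. For comparison, the 6044 kept probes of 45% GC had medians of 0.00 (0.0036 and 0.0009) at these doses. With the median of probes of like GC content subtracted on each array, BBC3 was still higher at 2 Gy (1.43, adjusted p = 1.35e-08) and 10 Gy (1.45, adjusted p = 6.59e-09), but its difference between doses fell to 0.02 (adjusted p = 0.859). With GC-rich probes (60% or more) removed, the probe of 55% GC stood for the gene, and the difference between doses was 0.89 (adjusted p = 9.53e-06). The genes whose 8 ratios were most like those of this BBC3 probe, by the root mean square difference over arrays, were WNT6 (0.0562), 2 probes without a gene name (0.0847 and 0.0897), LBX1 (0.106) and CASKIN1 (0.134). Of these 5 probes, 4 had a GC content of 76.7% to 83.3%, and that of LBX1 was 55%.

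**Figure D3:**
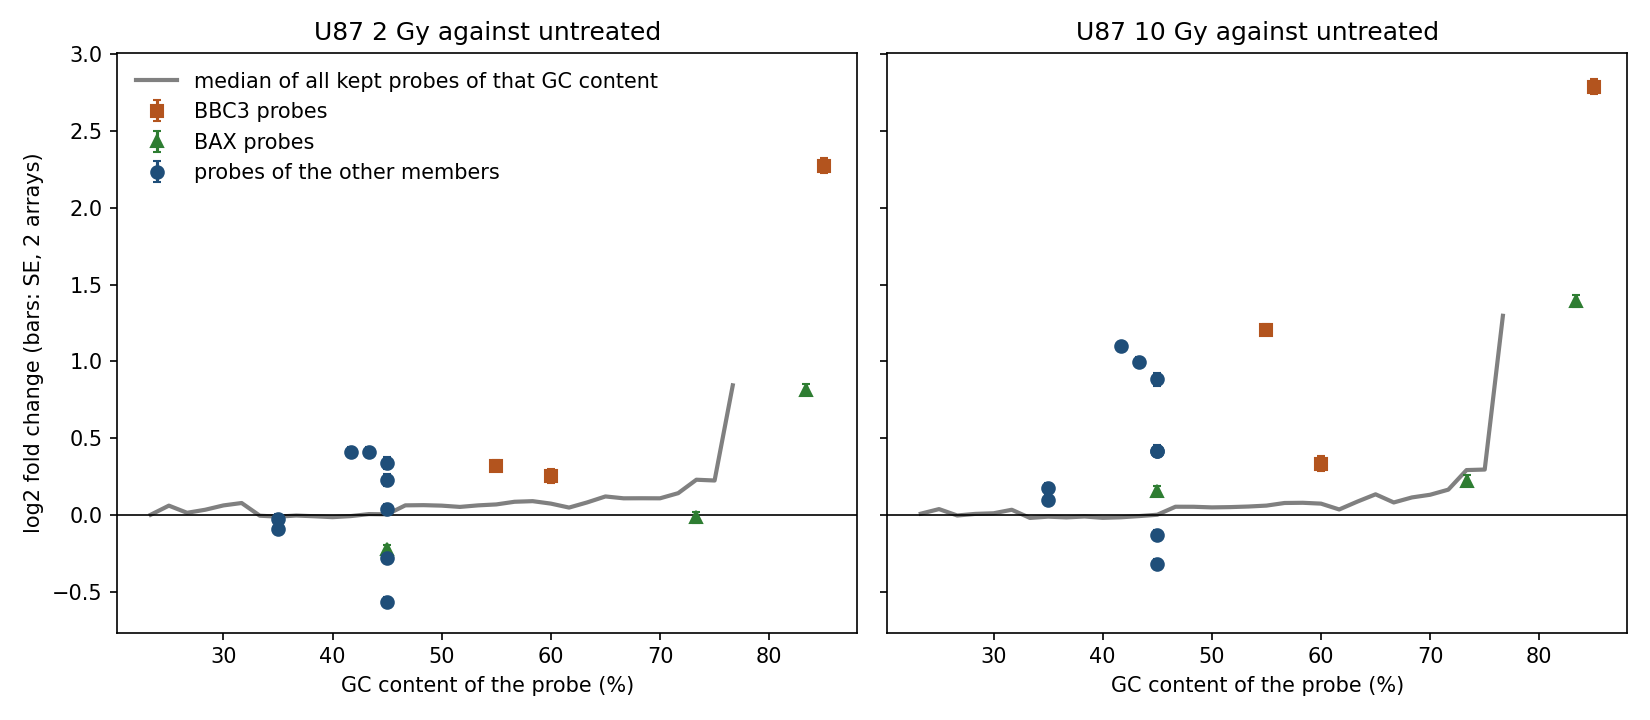
Log2 fold change (bars: SE, n = 2 arrays) of all 15 probes of the members against the GC content of the probe, at 2 Gy (left) and 10 Gy (right), with the median of all kept probes of each GC content in grey. The line climbs to 0.84 and 1.30 at its GC-rich end, where a BBC3 probe and a BAX probe lie, whereas the probes of FAS, TP53I3 and TP53INP1 rose at a GC content of 41.7% to 45%.

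PMAIP1 was the member called lower at both doses with loess. Its 10 spots gave -0.57 and -0.56 on the arrays of 2 Gy and -0.32 and -0.32 on those of 10 Gy. The gene was lower than in untreated cells at both doses, by 0.57 (SE 0.03) and 0.32 (SE 0.03) on the log2 scale, and less so at 10 Gy (difference 0.24, adjusted p = 0.00257); under median centring its ratios were -0.01 and 0.15 (adjusted p = 0.84 and 0.0275). Fitting normexp on all spots gave -0.30 and -0.22, where the call at 10 Gy (adjusted p = 0.0659) and that between doses (0.0778, adjusted p = 0.611) were lost.

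For BAX, the probe with 10 spots and 45% GC, A_23_P208706, read -0.22 and -0.23 at 2 Gy and 0.17 and 0.15 at 10 Gy. It passed the test lower at 2 Gy (-0.22, SE 0.03) and higher at 10 Gy (0.16, SE 0.03), and the difference between doses, 0.38, had an adjusted p of 0.00025. The probe A_23_P346309, of 83.3% GC, gave 0.85 and 0.78 at 2 Gy and 1.34 and 1.45 at 10 Gy, near the medians of probes of like GC content (0.84 and 1.30). The third, A_23_P346311, of 73.3% GC, averaged -0.02 (adjusted p = 0.74) and 0.22 (adjusted p = 0.000438), beside medians of 0.23 and 0.29 for its GC content. All 3 probes were higher at 10 Gy than at 2 Gy and passed that test, by 0.24 to 0.58, against 9.39% of all probes tested by themselves, but they disagreed on the direction at 2 Gy. The calls of A_23_P208706 at both doses were lost with the disagreeing scans under their labels (adjusted p = 0.356 and 0.745), and with normexp fitted on all spots those at 2 Gy (adjusted p = 0.131) and between doses (adjusted p = 0.0646) were.

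APAF1 could hardly be measured on the PT arrays. Its Cy3 signal lay 30.7 to 36.7 units above local background and was not well above background on any of the 4 arrays, and its Cy5 signal was so on 1 array of 10 Gy only. It was called higher at 10 Gy (adjusted p = 0.0225), but not without either array of that dose (adjusted p = 0.0528 and 0.208), and its control level is only a bound, so that no fold can be given from it.

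The death receptors differed. FAS, whose probe has 10 spots and 41.7% GC, read 0.44 and 0.39 on the arrays of 2 Gy and 1.11 and 1.09 on those of 10 Gy. It rose by 1.33-fold (log2 0.41, SE 0.03, adjusted p = 1.62e-06) and 2.14-fold (log2 1.10, SE 0.03, adjusted p = 1.42e-09), and the difference of 0.68 between doses was the largest among the probes that stand for the members and above that of 99.7% of all genes tested, although the BBC3 probe of 55% GC differed by 0.89. FAS lost its call at 2 Gy with normexp fitted on all spots (0.19, adjusted p = 0.796), where its difference between doses, 0.53, did not pass either (adjusted p = 0.522). The call at 10 Gy stayed (0.72, adjusted p = 0.0413). Over the 10 spots of a scan, the FAS ratio had an SD of 0.0441 to 0.092, and the scans of an array spanned at most 0.0437.

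TNFRSF10B, by its brighter probe A_24_P218265, read 0.06 and 0.02 at 2 Gy and 0.43 and 0.41 at 10 Gy. It did not pass the test at 2 Gy (0.04, 95% interval -0.03 to 0.11) and rose by 1.34-fold at 10 Gy; under median centring it was called higher at 2 Gy too (0.70, adjusted p = 6.49e-12). The second probe, A_23_P169030, was below 0 at both doses, -0.28 and -0.13 (adjusted p = 2.21e-05 and 0.00385), and both probes have 45% GC. The probes thus disagreed in sign at 10 Gy, while both were higher at 10 Gy than at 2 Gy, by 0.38 and 0.15 (adjusted p = 0.000367 and 0.0355).

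The 4 remaining members have 1 probe each. TP53INP1 read 0.41 and 0.41 at 2 Gy and 0.99 and 1.00 at 10 Gy, where its mean of 0.999 fell just short of 2-fold. TP53I3 read 0.41 and 0.27 at 2 Gy and 0.83 and 0.93 at 10 Gy, a rise of 1.26-fold and 1.84-fold. EI24 read 0.16 and 0.30 at 2 Gy and 0.44 and 0.40 at 10 Gy. These 3 were higher than in untreated cells on all 4 arrays, and TP53INP1 and TP53I3 differed between doses by 0.59 and 0.54 (adjusted p = 2.8e-05 and 0.000201). TP53I3 (0.0948 and 0.48) and EI24 (0.0859 and 0.26) did not pass at either dose with normexp fitted on all spots, nor did their differences between doses (adjusted p = 0.543 for both). PERP was the least changed, at -0.09 and -0.09 at 2 Gy and 0.19 and 0.16 at 10 Gy. Its call at 2 Gy (-0.09, adjusted p = 0.0314) was lost without either array, and that at 10 Gy (0.18, adjusted p = 0.000721) was not, but the latter was lost with the disagreeing scans under their labels (0.08, adjusted p = 0.302).

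**Figure D4:**
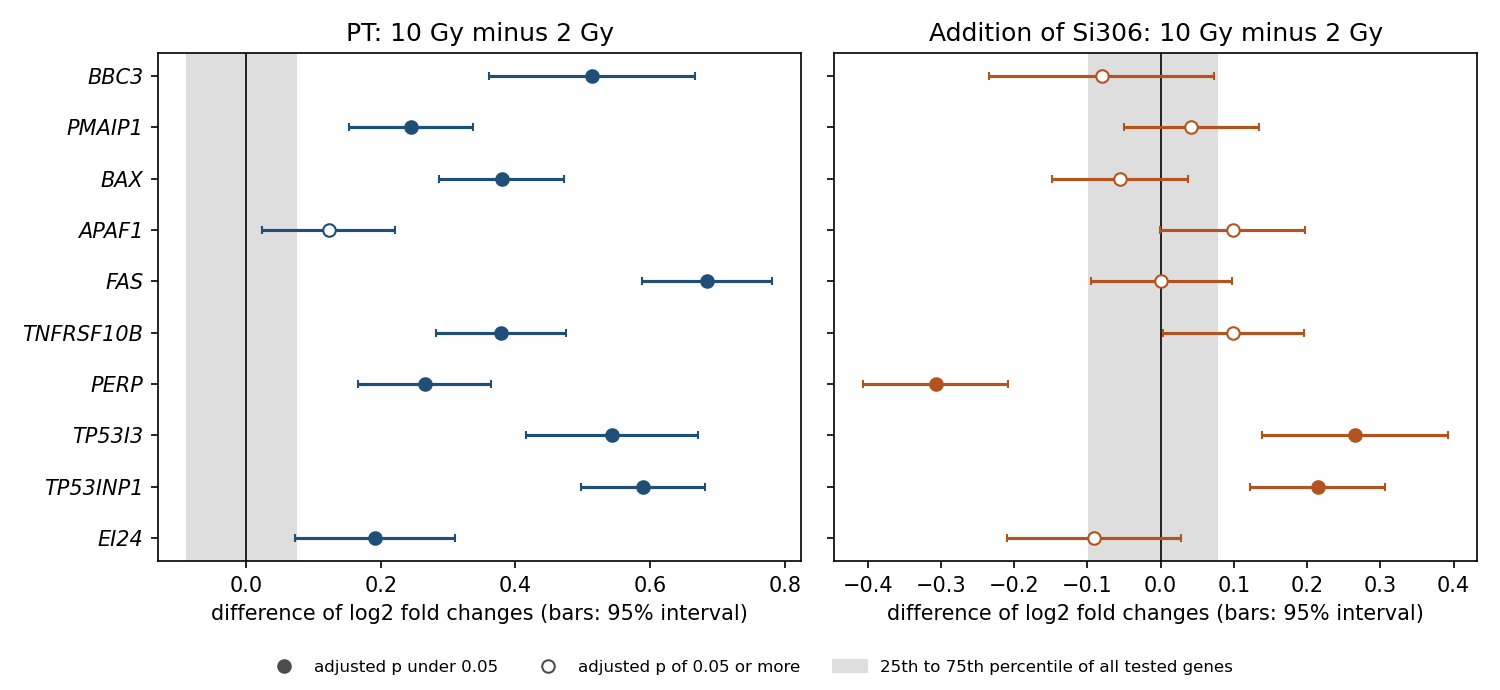
Difference of the log2 fold change between 10 Gy and 2 Gy for each member (points, with 95% intervals from the limma fit; n = 2 arrays per configuration), for PT on the left and for the addition of Si306 on the right; filled points passed an adjusted p of 0.05, and the grey band spans the 25th to 75th percentile of all tested genes. For PT 9 members lie above the band and are filled, and APAF1, open, was too dim to be measured, whereas for Si306 only PERP, TP53I3 and TP53INP1 are filled, the 2 latter turning below 0 under median centring.

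Other p53 target genes were read from a list of 34, of which 31 were matched by name and tested. At 2 Gy 21 were higher and 7 lower, against 32% and 25% of all genes, and at 10 Gy 29 were higher and 1 lower, against 31.2% and 26.4%. Between the doses 23 were higher at 10 Gy and 2 lower, against 10.1% and 11.1%, with a median difference of 0.36. Under median centring these counts were 26 and 4 at 2 Gy (58.8% and 25.5% of all genes), 27 and 2 at 10 Gy (57% and 23.8%), and 20 and 2 between the doses (3.95% and 9.32%). BTG2, which holds back proliferation, rose from 0.53 at 2 Gy to 1.64 at 10 Gy on the log2 scale, and GDF15, a secreted stress factor, from 0.30 to 1.26. PPM1D, a phosphatase that turns p53 signalling off, went from 0.39 to 1.21, CDKN1A (p21), the inhibitor of the cell cycle, from 0.38 to 1.19 (0.66 to 1.33 by its other probe), and FDXR, a mitochondrial reductase, from 0.59 to 1.15. These 5 and TNFRSF10B's relative TNFRSF10C, a decoy receptor (0.47 and 0.83), passed the test at both doses and between them. Median centring gave larger ratios at 2 Gy and 10 Gy, 0.99 and 2.08 for BTG2 and 1.10 and 1.94 for GDF15. It gave 0.82 and 1.62 for PPM1D, 1.04 and 1.76 for CDKN1A, 1.27 and 1.74 for FDXR, and 0.86 and 1.21 for TNFRSF10C. MDM2, the ligase that degrades p53, was -0.21 at 2 Gy and 0.10 at 10 Gy by its brighter probe, 0.15 and 0.45 by the same probe under median centring, and 0.05 and 0.26 by the other.

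The proteins that the members work with were read from a list of 23. Of its 22 tested genes (ligands, adaptors, caspases and the BCL2 family), 11 were higher and 3 lower at 2 Gy, against 32% and 25% of all genes, and 11 and 4 at 10 Gy, against 31.2% and 26.4%. Between the doses 5 were higher at 10 Gy and 4 lower, against 10.1% and 11.1%, with a median difference of 0.02. Under median centring 18 were higher at each dose, where 58.8% and 57% of all genes were, and 3 were higher and 4 lower between doses, against 3.95% and 9.32%. BCL2L1, which makes BCL-XL, a protector from death, rose by 0.57 and 0.88 on the log2 scale, and by 0.23 and 0.52 with its other probe. CYCS, cytochrome c, rose by 0.22 and 0.47 with the probe that stands for it, although another of its probes, at 0.02, did not pass at 10 Gy. BAK1, a pore former like BAX, rose by 0.26 and 0.42. By their standing probes under median centring, BCL2L1 read 0.87 and 1.19, CYCS 0.87 and 1.01, and BAK1 0.58 and 0.72.

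Si306 with PT was compared with PT alone to ask what the inhibitor adds at a given dose. At 2 Gy, 3 of the 10 members were higher (APAF1, PERP and TP53INP1), against 38.6% of all genes, and 4 were lower (BBC3, BAX, TP53I3 and EI24), against 27.9%. At 10 Gy, the same 3 and PMAIP1 were higher, against 34.7%, and the same 4 were lower, against 27.2%. None was a DEG, as 0.578% of all genes higher and 0.153% lower were at 2 Gy and 0.293% and 0.0832% at 10 Gy. Under median centring PERP (1.62) and PMAIP1 (1.04) were DEGs with Si306 + 2 Gy, against 16.7% of all genes, and no member was at 10 Gy. In one direction or the other, 88.7% and 78.1% of all genes passed the test under median centring, and 66.4% and 61.9% with loess. With loess, the largest ratios were -0.63 for BBC3 and 0.63 for APAF1, both at 10 Gy. The medians of the members were then -0.06 and -0.01, beside 0.04 and 0.02 for all genes. Under median centring none of the 4 genes called lower passed the test below 0 at either dose; 7 of these 8 ratios turned above 0, and BBC3 at 10 Gy read -0.06. The ratios of the members called higher, APAF1, PERP and TP53INP1 at both doses and PMAIP1 at 10 Gy, were above 0 under all alternatives run. The direction of the 4 called lower depended on the scaling. Median centring moved the median of all genes up by 0.38 at 2 Gy and 0.22 at 10 Gy, so it could hardly turn the higher ratios. It therefore does not compare how well the higher and the lower calls last. Some calls did not last: TP53INP1 with Si306 + 2 Gy was lost without either array (adjusted p = 0.0535 and 0.0701) and by the scanner's ratio (0.11), and TP53I3 with Si306 + 10 Gy was lost without either array (0.123 and 0.0815). With the disagreeing scans under their labels BAX lost its call at both doses (adjusted p = 0.32 and 0.165), as did TP53INP1 (0.563 and 0.0982), and at 10 Gy TP53I3 (0.5) and PMAIP1 (0.288) did. With normexp fitted on all spots BAX (adjusted p = 0.107 and 0.288), TP53I3 (0.21 and 1) and EI24 (0.292 and 0.682) lost theirs at both doses, TP53INP1 at 2 Gy (0.0887), and PMAIP1 (0.316) and APAF1 (0.157) at 10 Gy. These fits left 2 higher and 3 lower at 2 Gy and 2 and 2 at 10 Gy (31.9%, 22.8%, 28% and 21.3% of all genes), and 2 and 1 at each dose (15.5%, 10.3%, 10.4% and 5.69%).

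BBC3 read -0.52 and -0.58 with Si306 + 2 Gy and -0.66 and -0.61 with Si306 + 10 Gy by its GC-rich probe, whose like in GC content had medians of -0.02 and -0.09. Its probe of 55% GC went the other way, 0.02 (adjusted p = 0.629) and 0.17 (adjusted p = 0.00211), and its dimmest probe read 0.23 (adjusted p = 0.00156) and 0.02 (adjusted p = 0.778). PMAIP1 read 0.05 and 0.06 at 2 Gy and 0.09 and 0.10 at 10 Gy. It passed at 10 Gy (0.10, adjusted p = 0.0164), but not without either array (adjusted p = 0.102 and 0.133).

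BAX read -0.12 and -0.13 at 2 Gy and -0.18 and -0.18 at 10 Gy. Its probe of 73.3% GC was lower at both doses (-0.19 and -0.12, adjusted p = 0.00121 and 0.0145), whereas that of 83.3% GC was lower at 2 Gy (-0.13, adjusted p = 0.0137) and read 0.05 at 10 Gy (adjusted p = 0.316). APAF1, well above background in both colours on all 4 Si306 arrays, read 0.55 and 0.50 at 2 Gy and 0.62 and 0.63 at 10 Gy. It was higher with Si306 by 1.44-fold (adjusted p = 2.7e-07) and 1.54-fold (adjusted p = 1.34e-07). With normexp fitted on all spots its log2 ratios were 0.17 and 0.09, and the call at 10 Gy was lost (adjusted p = 0.157). Its Cy3 signal on these arrays lay 120 to 135 units above local background.

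Neither death receptor passed the test with its brightest probe, but this depended on the processing. Under median centring both were called higher at both doses (FAS 0.24 and 0.15, TNFRSF10B 0.91 and 0.66), and by the scanner's ratio FAS was called lower at both (-0.12 and -0.09, adjusted p = 0.0118 and 0.03) and TNFRSF10B at 2 Gy (-0.08, adjusted p = 0.027). TNFRSF10B at 2 Gy was also called lower with the GC median subtracted (-0.0904, adjusted p = 0.0252), under the strict filter (adjusted p = 0.0475) and with the replicate block over scans (adjusted p = 0.00423), and higher at both doses with the mean of its probes (0.12 and 0.11). With loess, FAS read -0.04 and -0.05 at 2 Gy and -0.04 and -0.05 at 10 Gy, with 95% intervals of -0.11 to 0.03 at both doses. TNFRSF10B read -0.07 and -0.07 at 2 Gy and 0.02 and 0.04 at 10 Gy, and its second probe was higher at both doses, 0.30 and 0.19 (adjusted p = 1.06e-05 and 0.00037). In the caspase that these receptors use, CASP8, the ratio was 0.80 at 2 Gy and 0.45 at 10 Gy by one probe and 1.06 and 1.34 by the other, all called higher. BAK1 was higher as well (0.33 and 0.50), whereas BCL2L1 was lower (-0.21 and -0.15) with the probe that stands for it, which did not pass under median centring (-0.0429 and 0.0026). By their standing probes, CASP8 read 1.18 and 0.77 and BAK1 1.10 and 1.01 under median centring. CYCS was lower by its standing probe (-0.34 and -0.36) but higher by its other probes (0.20 and 0.24 at 2 Gy, 0.38 and 0.37 at 10 Gy), and the standing probe turned to 0.64 and 0.26 under median centring. Of the 31 other p53 target genes, 15 were higher and 10 lower at 2 Gy, against 38.6% and 27.9% of all genes, and 16 and 9 at 10 Gy, against 34.7% and 27.2%. Of the 22 partners 10 were higher and 6 lower at 2 Gy and 10 and 7 at 10 Gy, against the same shares. Under median centring the targets gave 22 and 5, and 24 and 4, and the partners 19 and 1, and 18 and 1. Of all genes, 62.8% were then higher and 25.9% lower at 2 Gy, and 58.1% and 20% at 10 Gy.

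PERP read 0.50 and 0.53 with Si306 + 2 Gy and 0.24 and 0.18 with Si306 + 10 Gy, the higher ratios at the lower dose (difference -0.31, SE 0.04, adjusted p = 0.00125). TP53INP1 read 0.10 and 0.11 at 2 Gy and 0.32 and 0.33 at 10 Gy (difference 0.21, adjusted p = 0.00557). TP53I3 read -0.40 and -0.40 at 2 Gy and -0.14 and -0.12 at 10 Gy (difference 0.27, adjusted p = 0.00929). EI24 read -0.28 and -0.30 at 2 Gy and -0.39 and -0.37 at 10 Gy. The addition of Si306 differed between doses in these 3 members, PERP, TP53INP1 and TP53I3, with 2 higher at 10 Gy against 10% of all genes and 1 lower against 12.6%; under median centring PERP kept its direction while TP53I3 and TP53INP1 read -0.04 and -0.06. With the 2 disagreeing scans under their labels all 3 calls were lost (adjusted p = 0.0916 for PERP, 0.517 for TP53I3 and 0.599 for TP53INP1), and with normexp fitted on all spots those of TP53I3 and TP53INP1 were (adjusted p = 0.729 and 0.568). The call of TP53I3 was also lost without U87 Si306 + 2 Gy array 1 (adjusted p = 0.0506) or U87 Si306 + 10 Gy array 2 (adjusted p = 0.0594). For the other 7 the difference missed the threshold, with 95% intervals that lay between -0.23 and 0.20; under median centring 5 of them passed below 0, BBC3 (-0.38), PMAIP1 (-0.31), BAX (-0.39), TNFRSF10B (-0.25) and EI24 (-0.33), where 40.3% of all genes did.

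Promoter windows of the RefSeq tables (GRCh38.p14, from 250 bases before to 50 after each start) were matched for 8 of the members and searched for the p53 half-site, which reads alike on both strands. Of their 10 windows, 2 held a half-site, 1 of the 3 of FAS and that of EI24, and of all 35116 windows 6.63% did. No window of a member held 2 half-sites within 13 bases of each other, as 0.0285% of all windows did. Both windows with a half-site are shown in part, with the half-site in capitals, because they were the only ones of the members to hold one. A match of letters is no binding site, and it says nothing of binding in these cells.
FAS, chr10:88991299-88991328, plus strand, with the half-site 122 bases before a start: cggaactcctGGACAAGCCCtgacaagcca
EI24, chr11:125569447-125569476, plus strand, the 30 bases before its start: ccagcggccccgtgcggcccGGGCATGCCC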

How the data were processed

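The authors hybridised Cy5-labelled RNA of treated cells with Cy3-labelled RNA of the control and read the arrays (design 014850) with Agilent Feature Extraction 9.5. The deposited scanner tables hold, for each of 45015 spots, the mean and local background intensity of both dyes and the scanner's log10 ratio; they write decimal commas, and the deposited series matrix repeats that log10 ratio to within 0.005. Dyes were not swapped on any array, so a dye effect cannot be told from treatment within a configuration. Samples were grouped by their labels and placed on arrays by the slide and position in the headers; 22 of 24 scans were used.

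Intensities were background-corrected with normexp (offset 50), normalised by loess within each array (control and outlier spots at weight 0) and averaged over spots, scans and arrays with limma 3.58.1 in R 4.3.3. The design had named a normexp fit on all spots. That fit failed: up to 30 spots a scan lay more than 50 units under their own local background, and the fitted background SD then had a median of 644 units over scans and dyes, against 7.83 for the negative control spots. Those spots, none of a member, were left out, which gave a median of 1.75. This choice was made after the data were seen, and the fit as first designed is kept as an alternative.

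Probes well above background in either dye on at least 0.667 of the arrays of a configuration were kept (30316 of 41000), and a gene was read by its brightest kept probe. Probes well above background made up 56.8% to 64.1% of the array in Cy3 and 64.1% to 72.7% in Cy5. The limma fit tested the 4 configurations and both dose differences over all 22847 genes (4 residual and 6.02 prior degrees of freedom; prior SD 0.053), with Benjamini-Hochberg adjustment. A gene is called at an adjusted p under 0.05, and is a DEG if it also changed at least 2-fold. Scans of 1 array differed by a median SD of 0.0758 over probes and the 2 arrays of a configuration by 0.114, so the number of arrays, not of spots, limits the precision. The fits were tested on simulated data.

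All members are named with every probe; of the other lists, at most 5 genes with the largest log2 change among those called in any configuration, with MDM2 and CDKN1A always and the other probes of MDM2, CDKN1A, BCL2L1, CYCS and CASP8 added. The members and lists were chosen with earlier results of these data known. Alternatives covered the scanner's ratio, the series matrix, background, centring, GC content, filters, probe choice, the left-out scans, single arrays and a replicate block over scans. Same-numbered scans did not deviate together (correlations of -0.0737 to 0.0762), so the numbers do not pair the samples. Of the genes fixed by these rules, 2 are not reported here.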

Additional observations from a re-analysis of the deposited data

Results flagged for a closer look

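The effect of PT differed between 10 Gy and 2 Gy, by a test of the difference itself in the limma fit, in 9 of the 10 members; the tenth, APAF1, was too dim to be measured there. Of all genes, 10.1% were higher and 11.1% lower. With normexp fitted on all spots 3 members passed, and with the 2 disagreeing scans under their labels 0 did. The differences on the log2 scale were 0.51 for BBC3, 0.24 for PMAIP1, 0.38 for BAX, 0.68 for FAS, 0.38 for TNFRSF10B, 0.27 for PERP, 0.54 for TP53I3, 0.59 for TP53INP1 and 0.19 for EI24, all higher at 10 Gy. That of BBC3 was 0.0228 (adjusted p = 0.859) with the median of probes of like GC content subtracted and 0.89 without GC-rich probes, and EI24 lost its call in 9 of 18 alternatives. The effect of adding Si306 differed between the doses in 3 members, -0.31 for PERP, 0.27 for TP53I3 and 0.21 for TP53INP1, the latter pair turning below 0 (-0.04 and -0.0614) under median centring. These 3 of 10 stand beside 10% of all genes higher and 12.6% lower, and all 3 calls were lost with the disagreeing scans under their labels (adjusted p = 0.0916, 0.517 and 0.599).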

How the results depend on the processing

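Ratios and calls were recomputed under each alternative, except that APAF1 gave no value under the strict filter and that a left-out array was set only against the comparisons that use it. APAF1 is too dim on the PT arrays for its sign there to be read, and its values there only complete the list. Median centring shifted the median of all genes by 0.21 to 0.38 and changed most: 8 members rose and 1 fell at 2 Gy (all genes 58.8% and 25.5%), 10 rose and 0 fell with Si306 + 2 Gy (62.8% and 25.9%), 8 rose and 0 fell with Si306 + 10 Gy (58.1% and 20%), and between the Si306 doses 0 rose and 6 fell (16.2% and 40.3%). It turned BAX (0.39) and PERP (0.56) at 2 Gy, PMAIP1 (0.15) and APAF1 (-0.30) at 10 Gy; BBC3 (0.32), BAX (0.81), FAS (0.24), TNFRSF10B (0.91), TP53I3 (0.48) and EI24 (0.41) with Si306 + 2 Gy; BAX (0.42), FAS (0.15), TP53I3 (0.44) and EI24 (0.0798) with Si306 + 10 Gy; and PMAIP1 (-0.31), APAF1 (-0.0307), FAS (-0.0915), TNFRSF10B (-0.25), TP53I3 (-0.04) and TP53INP1 (-0.0614) between the Si306 doses. With the 2 disagreeing scans under their labels, 1 member fell at 2 Gy, 2 rose and 2 fell with Si306 + 10 Gy, 0 rose between the PT doses, and 0 rose and 0 fell between the Si306 doses; APAF1 at 2 Gy turned (0.0293). With normexp fitted on all spots, added after the data were seen, 2 rose and 1 fell at 2 Gy, 0 fell at 10 Gy, 1 fell with Si306 + 2 Gy, 2 rose and 1 fell with Si306 + 10 Gy, 3 rose between the PT doses and 0 between the Si306 doses (0.823% and 0.643% of all genes), where BBC3 (0.0311), BAX (0.0214), APAF1 (-0.0842) and EI24 (0.0368) turned. The cause of these changes was not tested.

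The other turns were few. The scanner's ratio and the series matrix turned APAF1 at 2 Gy (0.51 in both), and no background subtraction turned it (0.0057) and FAS between the Si306 doses (-0.0023). Removing GC-rich probes turned BBC3 with Si306 + 2 Gy (0.0214), with Si306 + 10 Gy (0.17) and between them (0.15). The mean of a gene's probes turned BAX (0.19) and TNFRSF10B (-0.12) at 2 Gy, TNFRSF10B with Si306 + 2 Gy (0.12), and BAX (0.0601) and TNFRSF10B (-0.0075) between the Si306 doses. Without single arrays, 8 to 9 members rose between the PT doses (5.56% to 8.76% of all genes) and 1 to 2 between the Si306 doses (4.66% to 6.2%), where FAS, at 0.0011 with all arrays, ranged from -0.0041 to 0.0064 (-0.0013 without U87 Si306 + 2 Gy array 2). The count was 1 without U87 Si306 + 2 Gy array 1 or U87 Si306 + 10 Gy array 2.

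With a replicate block over scans and array as a random block, 8, 9, 9 and 8 members passed in the 4 configurations (8, 10, 7 and 8 without), 9 between the PT doses and 4 between the Si306 doses, against 58.1%, 59.2%, 68.5%, 64%, 28.2% and 31.7% of all genes. APAF1 at 10 Gy lost its call (0.09, adjusted p = 0.0668). The 18 alternatives kept the PT dose differences of the 9 members other than APAF1 above 0, from 0.0228 (BBC3, GC median subtracted) to 0.89 (the same gene without GC-rich probes), but EI24 lost its call in 9 of them. These alternatives are not independent of each other, as the series matrix repeats the scanner's ratio.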

Other observations

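The 2 scans left out for their labels still give the members' values. In the scan labelled U87 10 Gy replicate 2, which lies on a 2 Gy array, FAS read 0.37, TP53INP1 0.38 and TP53I3 0.32, near the 2 Gy arrays. In the scan labelled U87 2 Gy replicate 5, which lies on a 10 Gy array, they read 1.10, 0.93 and 0.95, near the 10 Gy arrays.

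On the PT arrays, 2214 probes were well above background in Cy3 on all 4 arrays and on no Si306 array, and 1212 probes the other way round. Of the probes above background on all 8 arrays, 7.34% differed at least 4-fold in scaled Cy3 signal between the slides, against 0.127% and 0.171% between the doses within a slide.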
